A study of Homo sapiens with 9 samples.

Results

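The early response of Huh7 cells to PGG was read by setting 3 arrays of cells given PGG for 6 hours against 3 arrays of cells given PBS, 6 of the 9 arrays of the series. Huh7 is an established human hepatocellular carcinoma cell line, and PGG (pentagalloyl glucose) is a plant polyphenol with galloyl groups on a glucose core. The cells grew in DMEM, PGG was given at 0.1 mg/mL in PBS, and the control cells received PBS, the solvent. The other 3 arrays are of cells given the same concentration of PGG for 48 hours, and total RNA was measured on all of them. The titles and the methods put the PBS cells at 48 hours, whereas the label descriptions of those arrays give 0 hours of treatment. A 6-hour PBS control was not analysed here, so 6 hours of PGG and the shorter time in culture cannot be told apart in any value below. The titles number the arrays as biological replicates and do not say whether the cultures were separate, so the p-values measure only the spread between these arrays.

 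When amino acids run short or translation initiation is slowed, the factor ATF4 drives genes that make, import and charge amino acids. Metallothioneins are small cysteine-rich proteins that bind zinc and copper, and the zinc-sensing factor MTF1 switches on their genes. Serum response factor (SRF) and its actin-sensing partners drive genes of the contractile cytoskeleton, NF-kB drives chemokines and its own inhibitors, and E2F factors drive genes of DNA replication. Hepatocytes add programmes of their own, among them the iron hormone hepcidin under control of bone morphogenetic proteins (BMP) and IGFBP1 under control of insulin.

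All 54613 probe sets other than the array controls were compared, as log2 signals that the authors had normalised by RMA, and each of 19775 genes was read from its probe set with the highest mean. In limma, with Benjamini-Hochberg adjustment, 3394 genes were higher after 6 hours of PGG and 3335 were lower at an adjusted p under 0.05, which is 17.2% and 16.9% of the genes tested. These shares are the background for every count of a gene list below. Most of these differences were small, since the median size of a called difference was 0.45 on the log2 scale and 3795 of the 6729 called genes differed by less than 0.5. Beyond a log2 difference of 1 lay 289 rises and 377 falls, beyond 2 lay 27 and 34, and beyond 3 lay 3 and 9. At the study's cut-off, taken as an adjusted p under 0.005 with a log2 difference beyond 1.5, 163 probe sets were higher (0.298% of those tested) and 238 were lower (0.436%). The 3 PGG arrays overlapped the 3 PBS arrays in 0 of these 401, which a cut-off of that size nearly fixes in advance. Over all 19775 genes, all 3 PGG arrays lay above all 3 PBS arrays in 4555 and below them in 4366. The median difference over all genes was 0.01. In bulk RNA a lower signal from fewer cells of a kind cannot be told from less RNA per cell.

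**Figure D1:**
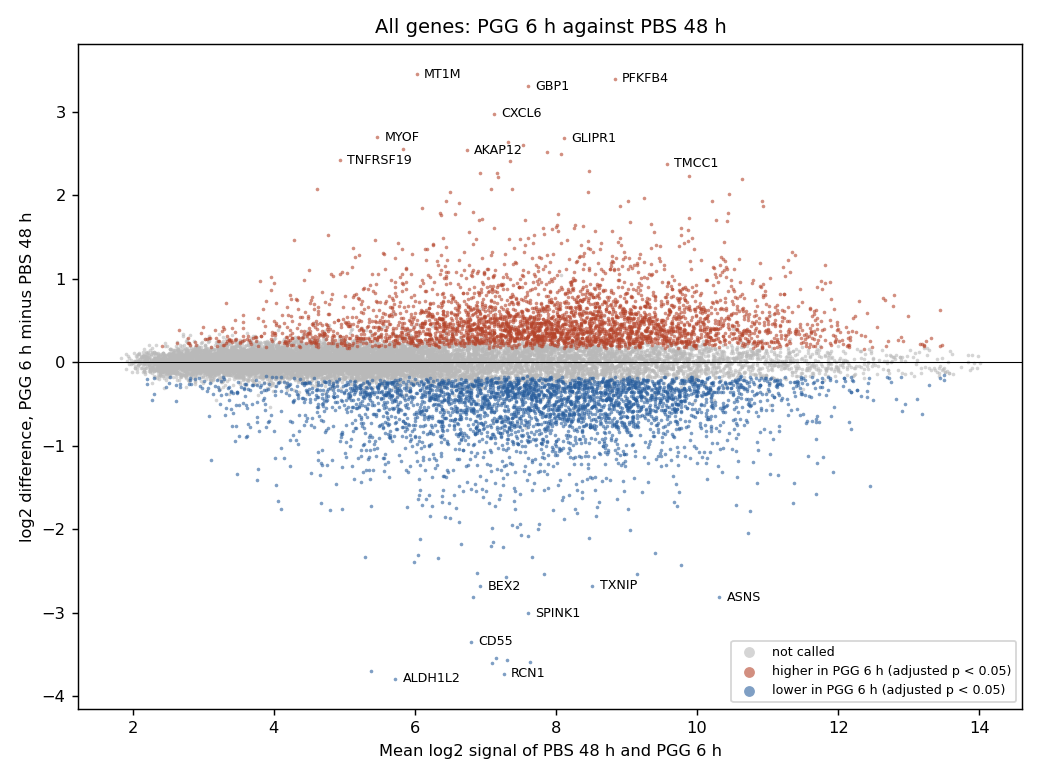
Difference between 6 hours of PGG and PBS for each of 19775 genes (vertical axis, log2 difference of 3-array means) against its mean log2 signal over the 6 arrays (horizontal axis). Red and blue points are the 3394 higher and 3335 lower genes at a limma adjusted p under 0.05, grey points were not called, and labels mark some of the 15 largest rises and falls. The largest falls reach further from 0 than the largest rises, and genes of low signal are seldom called.

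The 6 arrays were broadly alike in quality, with PBS replicate 1 the most apart. For ACTB, a control read from both ends of its message, the 3′ probe set exceeded the 5′ one by 1.35 ± 0.34 log2 units in PBS (SD, n = 3) and by 1.17 ± 0.05 in PGG 6 h (SD, n = 3), and array medians lay between 5.17 and 5.20. In PBS replicate 1 the ACTB excess was 0.96, against 1.57 and 1.51 in the other PBS arrays, and that of GAPDH 0.13, against 0.35 and 0.31. Its limma array weight was 0.598, against 1.03 to 1.79 for the others of the 6. Correlations between arrays across probe sets were 0.995 to 0.998 within PBS, 0.998 within PGG 6 h and 0.983 to 0.986 between the groups. Hepatoma markers had a median log2 signal of 11.21 in PBS, against 4.87 for markers of stellate cells and fibroblasts, 4.23 for endothelial and 5.39 for blood cell markers, and AFP, the fetal albumin-like protein of hepatoma cells, read 13.35 ± 0.05 (SD, n = 3). Of the 16 hepatoma markers 6 were higher and 2 lower after PGG, and of 30 markers of the other cell types 2 were higher and 3 lower, the largest of them the lipopolysaccharide co-receptor CD14 at -0.81.

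With each gene read from its probe set of highest mean, the 15 largest rises took in genes of several kinds. The largest rise of a probe set past the study's cut-off was in HELLS, by 4.55, from 4.02 to 8.57. That probe set was not the one read for the gene, and its PBS signal lay in the lowest part of the array's range. The probe set read for HELLS did not pass the cut-off. MT1M, a metallothionein, read 4.11, 4.41 and 4.39 on the 3 PBS arrays and 7.80, 7.78 and 7.67 on the 3 PGG arrays. PFKFB4, a bifunctional enzyme that sets the level of the glycolytic activator fructose-2,6-bisphosphate, read 7.22, 7.12 and 7.06 and then 10.44, 10.57 and 10.57. In both genes the lowest PGG array stood more than 3 log2 units above the highest PBS array, and the means differed 10.9-fold and 10.5-fold (limma adjusted p = 4.1e-10 and 1.0e-10). GBP1, a GTPase induced by interferon-gamma, read 6.10, 6.09 and 5.67 in PBS and 9.45, 9.04 and 9.29 in PGG. CXCL6, a chemokine that attracts neutrophils, read 5.60, 5.80 and 5.52 and then 8.66, 8.54 and 8.64. The groups stood clear of each other in these genes too, with differences of 3.31 and 2.97 (limma adjusted p = 1.9e-08 and 7.5e-10).

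Other genes among the 15 largest rises belonged to membranes, signalling and metabolism. MYOF, which encodes the membrane repair protein myoferlin, rose by 2.69, AKAP12, a scaffold for protein kinase A, rose by 2.53, and the TNF receptor family member TNFRSF19 rose by 2.42. GLIPR1, a cysteine-rich secretory family gene, read 7.05, 6.64 and 6.64 in PBS and 9.60, 9.31 and 9.46 in PGG, a difference of 2.68. BBOX1, the last enzyme of carnitine synthesis, read 6.80, 6.82 and 6.85 and then 9.23, 9.34 and 9.38, a difference of 2.49. All 3 PGG arrays lay above all 3 PBS arrays for each of the 15 genes, as the rule for naming them required. HCAR3, a receptor for hydroxylated fatty acids, rose by 2.52, the secreted matrix glycoprotein gene OLFML3 rose by 2.40, the endoplasmic reticulum protein gene TMCC1 rose by 2.38 and NBPF20 rose by 2.63. HCAR3 and NBPF20 have near-identical paralogs, so which copy gave their signal is uncertain.

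**Figure D2:**
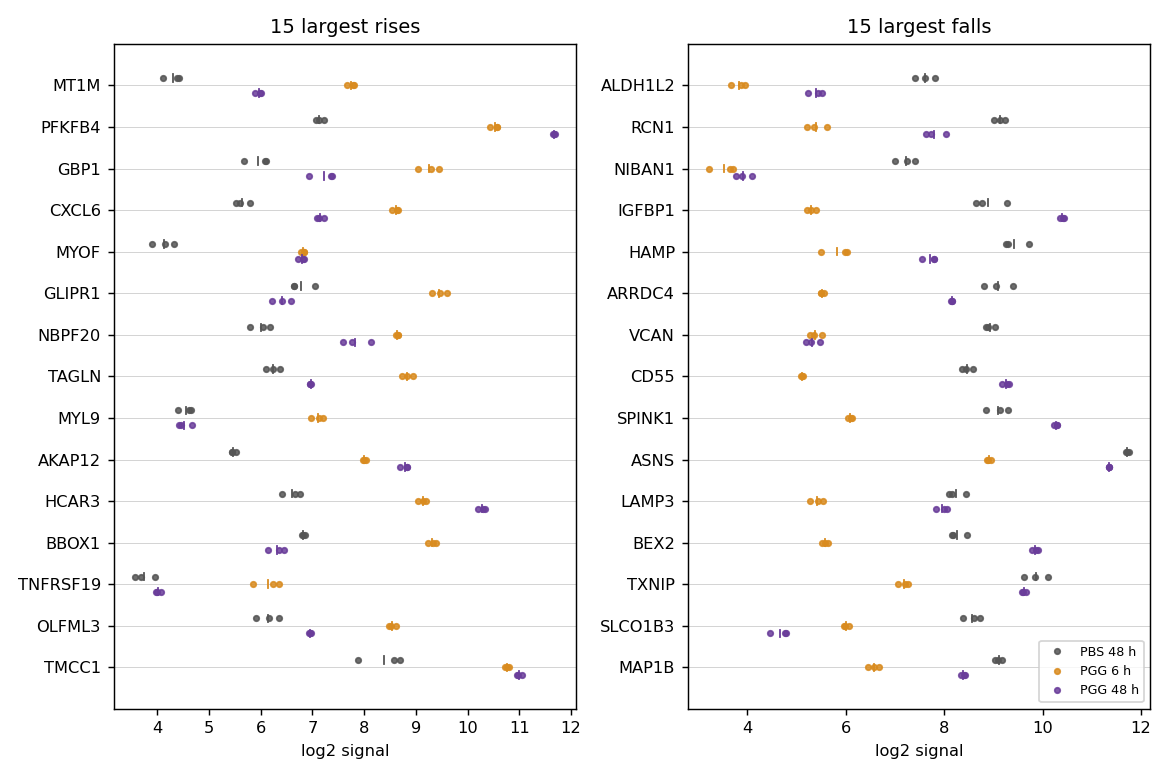
Log2 signal (horizontal axes) of the 15 genes with the largest rises (left) and the 15 with the largest falls (right) at 6 hours, on each of the 9 arrays. Points are single arrays, short lines are means of 3 arrays, and colours mark PBS 48 h, PGG 6 h and PGG 48 h. For each gene the 3 PGG 6 h arrays stand apart from the 3 PBS arrays. The PGG 48 h arrays of some genes lie near or past the PBS arrays, among them MYL9, GLIPR1, BBOX1, IGFBP1, BEX2, SPINK1 and CD55.

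The 15 largest falls took in genes of several kinds. ALDH1L2, a mitochondrial enzyme that oxidises formyl-tetrahydrofolate, read 7.62, 7.82 and 7.41 in PBS and 3.95, 3.87 and 3.66 in PGG, which is 13.8-fold lower (limma adjusted p = 1.7e-09). RCN1, a calcium-binding protein of the endoplasmic reticulum, read 9.02, 9.23 and 9.14 and then 5.36, 5.61 and 5.22, which is 13.3-fold lower (limma adjusted p = 2.2e-09). The PGG signals of ALDH1L2 stood in the lowest part of the range of the array. HAMP, which encodes the iron hormone hepcidin, read 9.72, 9.26 and 9.30 in PBS and 5.49, 5.98 and 6.03 in PGG. IGFBP1, a secreted binding protein of insulin-like growth factors, read 8.77, 9.28 and 8.64 and then 5.21, 5.29 and 5.39. Both genes fell clear of the PBS arrays, by 12.1-fold and 12.1-fold (limma adjusted p = 1.3e-08 and 5.1e-09).

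Further large falls were of the stress protein gene NIBAN1, which fell by 3.70, the matrix proteoglycan gene VCAN, which fell by 3.55, and the lysosomal membrane gene LAMP3, which fell by 2.81. CD55, a shield against complement on the cell surface, read 8.37, 8.58 and 8.44 in PBS and 5.10, 5.11 and 5.14 in PGG, a difference of -3.35. SPINK1, a secreted trypsin inhibitor made by many hepatomas, read 9.14, 9.30 and 8.86 and then 6.10, 6.05 and 6.13, a difference of -3.01. The 3 PGG arrays of CD55 agreed within 0.1, and none of the arrays of either gene came near the other group. SLCO1B3, an organic anion importer of hepatocytes, fell by 2.57, the microtubule-associated gene MAP1B fell by 2.54 and BEX2 fell by 2.69.

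Several metallothioneins rose. Of the 18 measured genes of metallothioneins and zinc transport, 8 rose and 3 fell, against 17.2% and 16.9% of all genes, and 7 of the 8 were metallothioneins. MT1X read 9.41, 9.67 and 9.52 in PBS and 11.72, 11.85 and 11.62 in PGG. MT2A, the most widely expressed form, read 9.95, 10.17 and 9.90 and then 11.82, 11.94 and 11.86. Both were already abundant in PBS and still separated fully, by 2.20 and 1.87 (limma adjusted p = 7.7e-09 and 2.3e-08). MT1G rose by 2.01, MT1H rose by 1.93, MT1E rose by 1.93 and MT1F rose by 1.72. SLC30A1, the zinc exporter of the plasma membrane, rose by 0.32, while the zinc importer SLC39A10 fell by 0.81. Probe sets of the MT1 genes match near-identical copies, so the share of each copy is uncertain. When probe sets that match several transcripts were left out, so that fewer genes were measured, 2 of the list rose.

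The promoters of MT1X and MT2A are shown because metallothionein genes are driven through metal response elements, written here as TGCACNC or TGCGCNC on either strand and marked by capitals. They are 300 bases of RefSeq on GRCh38.p14, MT1X at chr16:56682220-56682519 and MT2A at chr16:56608334-56608633, both on the plus strand, with 250 bases before the start of the gene.
MT1X: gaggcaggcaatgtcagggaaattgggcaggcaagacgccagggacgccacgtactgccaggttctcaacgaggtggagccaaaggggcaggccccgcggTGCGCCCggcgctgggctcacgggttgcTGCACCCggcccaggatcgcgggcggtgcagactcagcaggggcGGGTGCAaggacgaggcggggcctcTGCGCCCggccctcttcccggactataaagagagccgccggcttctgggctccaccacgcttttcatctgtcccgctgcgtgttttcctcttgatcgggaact
MT2A: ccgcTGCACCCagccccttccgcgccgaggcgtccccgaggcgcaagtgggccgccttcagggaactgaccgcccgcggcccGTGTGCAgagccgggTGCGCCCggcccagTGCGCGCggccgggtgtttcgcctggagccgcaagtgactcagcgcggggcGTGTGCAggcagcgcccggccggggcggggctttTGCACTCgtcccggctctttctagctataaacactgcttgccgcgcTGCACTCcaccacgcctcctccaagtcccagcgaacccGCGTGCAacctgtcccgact
MT1X held 4 matches and MT2A held 8. Of 13 promoters of the list that the RefSeq table gave, 38.5% held a match, against 29.3% of 27305 promoters. By response, matches stood in 4 of 4 genes that rose, 0 of 3 that fell and 1 of 6 that were not called.

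Most genes of the ATF4 programme fell. Of 22 measured stress factors and effectors of ATF4, 2 rose and 16 fell, with a median difference of -0.56. TRIB3, a pseudokinase that restrains AKT and ATF4 itself, read 12.20, 12.24 and 12.17 in PBS and 10.45, 10.58 and 10.53 in PGG, a difference of -1.68 (limma adjusted p = 5.0e-09). STC2, a secreted glycoprotein, fell by 1.72, EIF4EBP1, a brake on cap-dependent translation, fell by 1.71, and the C/EBP factor genes CEBPG and CEBPB, partners of ATF4, fell by 1.24 and fell by 1.13. The growth differentiation factor gene GDF15 fell by 1.12 and DDIT3, which encodes the stress factor CHOP, fell by 0.47. Among the few exceptions were EIF2AK3, the kinase PERK that slows translation under stress of the endoplasmic reticulum, which rose by 1.11, and ATF5, which rose by 0.59 but was at 0.17 (adjusted p = 0.15) with the mean of its probe sets. ATF4 itself read 11.91 ± 0.03 (SD, n = 3) in PBS and 11.89 ± 0.01 (SD, n = 3) in PGG, a difference of -0.02 (limma adjusted p = 0.85).

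Among enzymes that make amino acids falls also outnumbered rises. Of 25 measured enzymes of amino acid and serine synthesis, 4 rose and 14 fell, with a median of -0.36. ASNS, which makes asparagine, read 11.76, 11.72 and 11.69 in PBS and 8.96, 8.89 and 8.87 in PGG, which is 7.04-fold lower (limma adjusted p = 1.0e-10). The replicates of ASNS lay within 0.1 of each other in each group. CTH and CBS, the transsulfuration enzymes that lead to cysteine, fell by 2.43 and fell by 1.76. In the serine pathway PHGDH fell by 1.40, PSAT1 fell by 1.14 and PSPH fell by 0.36, and the mitochondrial folate enzymes SHMT2 and MTHFD2 fell by 0.93 and fell by 0.92. The branched-chain aminotransferase BCAT1 fell by 1.44, and PCK2, the mitochondrial phosphoenolpyruvate carboxykinase, fell by 1.44. ALDH18A1, the first enzyme of proline synthesis, rose by 0.62 and TYMS, the thymidylate synthase, rose by 0.60.

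Transporters and charging enzymes of amino acids had more falls than rises. Of 26 measured amino acid transporters, 2 rose and 13 fell, among them the cystine importer SLC7A11, which fell by 1.35, the arginine carriers SLC7A2 and SLC7A1, which fell by 1.32 and fell by 1.20, and the glutamine carrier SLC38A2, which fell by 1.21. SLC38A4, a hepatocyte carrier, rose by 0.66. Of 19 measured genes of cytosolic tRNA synthetases and tRNA export, 1 rose and 16 fell, with a median of -0.72. SARS1, the seryl-tRNA synthetase, read 10.30, 10.36 and 10.39 in PBS and 9.01, 9.20 and 9.15 in PGG, a difference of -1.23 (limma adjusted p = 8.6e-08). YARS1 fell by 1.19, LARS1 fell by 1.06, TARS1 fell by 1.05 and XPOT, the exporter of tRNA from the nucleus, fell by 0.95. The 1 member that rose was HARS1, the histidyl-tRNA synthetase, by 0.78.

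Promoters of ASNS and BCAT1 are shown because ATF4 acts through C/EBP-ATF response elements, searched as TGATGNAAN on either strand and marked by capitals. Both are RefSeq sequence of GRCh38.p14 on the minus strand, ASNS at chr7:97872359-97872658 and BCAT1 at chr12:24949052-24949351.
ASNS: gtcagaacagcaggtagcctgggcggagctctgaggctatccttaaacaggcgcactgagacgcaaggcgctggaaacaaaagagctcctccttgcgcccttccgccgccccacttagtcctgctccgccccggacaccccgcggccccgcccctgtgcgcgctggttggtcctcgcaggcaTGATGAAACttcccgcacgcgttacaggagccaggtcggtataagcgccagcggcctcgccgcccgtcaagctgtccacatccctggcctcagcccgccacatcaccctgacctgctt
BCAT1: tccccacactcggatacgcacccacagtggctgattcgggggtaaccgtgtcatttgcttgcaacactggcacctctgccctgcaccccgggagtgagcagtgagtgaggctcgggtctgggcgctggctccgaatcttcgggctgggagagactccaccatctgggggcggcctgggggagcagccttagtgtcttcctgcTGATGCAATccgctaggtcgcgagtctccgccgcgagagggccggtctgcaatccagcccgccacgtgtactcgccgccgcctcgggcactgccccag
The match lies 68 bases before the start of the gene in ASNS and 48 in BCAT1. A match stood in 15.8% of the promoters of the ATF4 effectors, 22.2% of the synthesis enzymes, 20% of the transporters and 31.2% of the tRNA synthetases, against 3.67% of all promoters. Among the tRNA synthetases 5 of the 13 promoters of genes that fell held a match, and 0 of the other 3 promoters of the list. For the synthesis enzymes it was 3 of 10 that fell and 1 of 6 that were not called. For the transporters it was 3 of 10 that fell and 1 of 8 that were not called.

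A pair of glucose-responsive arrestins were among the large falls. ARRDC4 and TXNIP encode arrestin-like proteins that lower glucose uptake, and the sugar-sensing factors MondoA and ChREBP drive both. ARRDC4 read 9.06, 9.39 and 8.81 in PBS and 5.50, 5.55 and 5.49 in PGG, which is 11.9-fold lower (limma adjusted p = 2.2e-09). TXNIP read 9.84, 10.10 and 9.63 and then 7.06, 7.21 and 7.26, which is 6.41-fold lower (limma adjusted p = 7.1e-09). Both stood far below PBS on all 3 arrays, while ARRDC3, a related arrestin, rose by 1.03. Over the 17 measured targets 3 rose and 6 fell, and those that fell included the transcription factor genes KLF15, KLF10 and KLF11, which fell by 1.59, fell by 1.21 and fell by 1.12. In the list of gluconeogenesis, insulin and IGF, with 27 measured, 2 rose and 11 fell, and the other 14 were not called. Those that fell, beside IGFBP1, included the insulin receptor substrates IRS1 and IRS2, which fell by 1.43 and fell by 0.81, the coactivator PPARGC1A, which fell by 0.94, and the growth hormone receptor GHR, which fell by 0.72.

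Most genes of the actin cytoskeleton rose. Of 30 measured genes of actin and SRF, 24 rose and 0 fell at an adjusted p under 0.05, with a median difference of 0.59. TAGLN, which encodes the actin-binding protein transgelin, read 6.37, 6.10 and 6.24 in PBS and 8.82, 8.74 and 8.94 in PGG. MYL9, a regulatory light chain of nonmuscle and smooth muscle myosin, read 4.65, 4.40 and 4.62 and then 6.98, 7.21 and 7.13. Every PGG array lay more than 2 units above every PBS array in both genes, and the differences were 2.60 and 2.55 (limma adjusted p = 2.0e-09 and 5.4e-09). VCL, which encodes the focal adhesion protein vinculin, rose by 1.65, the nonmuscle myosin heavy chain MYH9 rose by 1.27, the crosslinker ACTN4 rose by 1.18, the tropomyosin TPM1 rose by 1.14 and ZYX, which encodes zyxin, rose by 1.09. ACTB, the cytoplasmic actin gene, read 13.13 ± 0.09 (SD, n = 3) in PBS and 13.75 ± 0.02 (SD, n = 3) in PGG and rose by 0.63. SRF itself was at -0.05 (limma adjusted p = 0.69). Without probe sets that match several transcripts, 11 of the list rose.

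Neighbouring programmes of adhesion and matrix were mixed. Among 29 measured targets and partners of the growth-control factors YAP and TEAD, 12 rose and 8 fell. MYOF led the rises, CCN1, a matricellular protein, rose by 1.64, AMOTL2 rose by 1.24 and the coagulation initiator F3 rose by 1.23, while YAP1 itself fell by 0.71 and its kinase LATS1 fell by 0.56. Of 36 measured genes of cell junctions, 7 rose and 14 fell: the gap junction gene GJB2 rose by 1.85, the desmosome genes PKP2 and JUP rose by 1.61 and rose by 1.31, whereas the integrins ITGA2 and ITGA6 and the tight junction gene OCLN fell by 1.13, fell by 1.10 and fell by 1.08. Of 45 measured matrix genes 9 rose and 5 fell, or 20% and 11.1%, against 17.2% and 16.9% of all genes. COL4A1, a chain of basement membrane collagen, rose by 1.78, and TIMP2, an inhibitor of matrix metalloproteinases, rose by 1.57, while the laminin chain LAMB1 fell by 1.37. Tubulins moved both ways, with TUBB2B, TUBE1 and TUBA1A lower by 2.15, 2.11 and 1.17 and 8 of 16 higher, the most by TUBB4B at 0.72. Tubulin genes are near-identical in places, so their probe sets may share signal.

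Genes of DNA replication were higher in 46 of 56 measured and lower in 5, with a median of 0.65. RRM2, a subunit of the ribonucleotide reductase that makes deoxynucleotides, read 9.01, 8.72 and 8.58 in PBS and 10.96, 11.02 and 11.02 in PGG, which is 4.69-fold higher (limma adjusted p = 1.2e-08). CCNE2, which encodes cyclin E2, the partner of CDK2 at the entry to S phase, read 6.21, 6.14 and 5.75 and then 8.32, 8.20 and 8.36, which is 4.79-fold higher (limma adjusted p = 2.3e-08). Neither gene showed an array of one group within the range of the other. The E2F repressors E2F7 and E2F8 rose by 1.80 and rose by 1.59, the helicase genes MCM10 and MCM5 rose by 1.57 and rose by 1.44, the licensing factor CDT1 rose by 1.05 and PCNA, the sliding clamp, rose by 0.90. The members that fell were the origin recognition genes ORC2, ORC5 and ORC4, the kinase gene CDC7 and the clamp loader gene RFC1, which fell by 1.54, fell by 0.64, fell by 0.24, fell by 0.92 and fell by 0.51.

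A pair of promoters of this list are shown, UHRF1, a reader of hemimethylated DNA that rose by 1.12, and CDT1, with E2F sites (TTTCGCGC, TTTGGCGC, TTTCCCGC or TTTGCCGC on either strand) in capitals. They are RefSeq sequence of GRCh38.p14 on the plus strand, UHRF1 at chr19:4909251-4909550 and CDT1 at chr16:88803539-88803838.
UHRF1: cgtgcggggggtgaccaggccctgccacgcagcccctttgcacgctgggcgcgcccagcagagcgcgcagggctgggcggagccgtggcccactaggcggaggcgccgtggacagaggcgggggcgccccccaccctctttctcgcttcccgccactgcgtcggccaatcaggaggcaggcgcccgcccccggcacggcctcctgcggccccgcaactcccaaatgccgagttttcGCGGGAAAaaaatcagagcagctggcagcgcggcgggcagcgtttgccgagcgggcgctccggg
CDT1: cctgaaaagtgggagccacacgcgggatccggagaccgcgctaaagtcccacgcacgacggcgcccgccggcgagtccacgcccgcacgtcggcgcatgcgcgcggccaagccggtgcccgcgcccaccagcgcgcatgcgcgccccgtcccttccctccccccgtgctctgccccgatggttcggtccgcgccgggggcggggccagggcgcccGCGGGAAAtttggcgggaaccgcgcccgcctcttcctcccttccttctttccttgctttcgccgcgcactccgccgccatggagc
A site stood in 43.8% of the 48 promoters of the list given, against 3.33% of all promoters. It stood in 20 of 38 genes that rose, in 0 of 5 that fell and in 1 of 5 that were not called.

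Other genes of the cell cycle moved less uniformly. Of 52 measured genes of mitosis and the spindle, 27 rose and 8 fell, with a median of 0.21. CDCA2, a mitotic regulator of protein phosphatase 1, rose by 1.45, the proliferation marker MKI67 rose by 0.99, and CENPE, a kinetochore motor, and BUB1B, a checkpoint kinase, fell by 1.53 and fell by 1.14. Among 24 genes of G1 phase 8 rose and 8 fell, with cyclin E1 (CCNE1) and cyclin G2 (CCNG2) up by 1.17 and 1.52. The RB family genes RBL1 and RB1 fell by 0.95 and fell by 0.67, and the inhibitor gene CDKN2B fell by 0.82. In the other direction, a probe set that the paper assigns to the inhibitor gene CDKN2C (p18) rose by 3.05, from 4.74 to 7.79. It had no single symbol and so was not read for a gene. SLBP, the protein that binds the stem-loop of histone messages, rose by 1.25, and 10 rose and 6 fell of 45 measured histone and histone-processing genes, whose copies are hard to separate by probe. Those are 22.2% and 13.3%, near the 17.2% and 16.9% of all genes. They leave out a probe set without a single symbol, which the paper assigns to the H1 histone gene H1F0. It fell by 3.67, from 10.56 to 6.89. Of 41 enzymes of DNA and histone methylation 16 rose and 10 fell, with the histone demethylase KDM3A at 1.48 and KDM7A at -1.48.

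MYC, a transcription factor of growth at the centre of the study, and GNMT, the enzyme glycine N-methyltransferase that uses up methyl groups, were read on each array. On the 3 PBS arrays MYC read 11.78, 11.60 and 11.57, and on the 3 PGG arrays 9.83, 9.84 and 9.92. GNMT read 4.25, 4.09 and 3.84 in PBS and 4.34, 4.29 and 4.16 in PGG. MYC was lower on every PGG array (limma adjusted p = 3.2e-08), while the GNMT arrays overlapped, at a difference of 0.20 with a standard error of 0.11 (limma adjusted p = 0.21) and with all signals in the lowest part of the array's range. Of 33 measured MYC targets of ribosome biogenesis 4 rose and 17 fell, the largest fall being that of POLR1B, a subunit of RNA polymerase I, at -1.54. Among genes of cytosolic ribosomal proteins 6 of 52 measured rose and 6 fell, below the share of all genes. Without PGG 6 h replicate 3 only 1 of them rose, and without PBS replicate 2 or 3 it was 3 or 2.

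Genes of glycolysis and of the hypoxia response were mostly higher. Of 32 measured genes of glycolysis and glucose transport 18 rose and 3 fell. PFKFB3, a relative of PFKFB4, rose by 1.58, LDHB, a lactate dehydrogenase, rose by 1.43, ALDOC rose by 1.40 and the glucose carrier SLC2A1 rose by 1.29. Of 30 other hypoxia targets 20 rose and 4 fell. ADM, which encodes the vasodilator adrenomedullin, read 8.18, 8.24 and 8.20 in PBS and 9.83, 9.92 and 9.91 in PGG, a difference of 1.68 (limma adjusted p = 4.0e-09). The lipid droplet gene HILPDA rose by 1.40, and EPO, which encodes erythropoietin, rose by 0.73. In the other direction VLDLR, a receptor of lipoproteins, fell by 2.12, STC2 fell as given above, and the angiogenic factor VEGFA fell by 0.64. Without probe sets that match several transcripts 11 of the glycolysis list and 12 of the other hypoxia targets rose.

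Each of 3 lipid lists had more rises than falls. Of 21 measured genes of cholesterol synthesis and uptake 13 rose and 1 fell, with ACAT2, which joins 2 acetyl-CoA molecules, the most changed at 1.60 and the SREBP escort SCAP lower at -0.42. Fatty acid and triglyceride synthesis showed 9 rises and 5 falls among 25, or 36% and 20%, against 17.2% and 16.9% of all genes. The acetyl-CoA synthetase ACSS2 rose by 1.18, whereas GPAM, the first enzyme of triglyceride synthesis, fell by 1.54 and the acyl-CoA synthetase ACSL1 fell by 1.12. FASN, the fatty acid synthase, read 8.98, 9.29 and 9.34 in PBS and 9.86, 9.99 and 9.96 in PGG, a difference of 0.73 (limma adjusted p = 0.044). It no longer passed when any 1 of the 6 arrays was left out, at adjusted p-values of 0.07 to 0.15, and passed at an adjusted p of 0.00027 in a limma fit of the 6 arrays alone. The fit of all 9 arrays shares 1 estimate of the spread, and the PGG 48 h arrays of FASN had an SD of 0.701 against 0.195 in PBS and 0.0681 in PGG 6 h. With the mean of its probe sets FASN was at 0.345 (adjusted p = 0.19). Among 31 targets of PPARA and of fatty acid oxidation 10 rose and 3 fell, led by the pantetheinase VNN1 at 1.47 and the fatty acid binding protein FABP1 at 1.28. Without PBS replicate 3 or without PGG 6 h replicate 3 the rises were 5, and without PGG 6 h replicate 2 the falls in the synthesis list were 3.

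Chemokines and feedback genes of NF-kB had more rises than falls. Of 35 measured genes of chemokines and NF-kB 18 rose and 1 fell. LTB, which encodes lymphotoxin beta, read 5.88, 5.95 and 6.14 in PBS and 7.51, 7.57 and 7.55 in PGG, a difference of 1.55 (limma adjusted p = 3.3e-08). The fractalkine gene CX3CL1 rose by 1.19, TNFAIP3, the ubiquitin-editing brake A20, rose by 0.95, and the inhibitor NFKBIE rose by 0.94. Of 23 measured genes induced by interferon-gamma 9 rose and 0 fell, including the chemokine gene CXCL10, which rose by 1.65, GBP2, which rose by 1.43, and the adhesion molecule ICAM1, which rose by 0.94. Of 42 measured genes of the type I interferon response 6 rose and 11 fell. The receptor chain IFNAR1 fell by 1.28 and the exonuclease ISG20 fell by 1.23, whereas IRF1 and USP18, which curbs interferon signalling, rose by 0.70 and rose by 0.72. Genes of class I antigen presentation were mostly not called, with 2 higher and 1 lower of 17.

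Acute-phase genes and genes of iron and BMP moved both ways. HP, which encodes haptoglobin, the plasma protein that binds free haemoglobin, read 5.41, 5.63 and 5.41 in PBS and 7.43, 7.36 and 7.44 in PGG, a difference of 1.93 (limma adjusted p = 5.1e-09). HP has a close paralog, so part of its signal may come from that copy. Over 24 acute-phase and IL-6 genes 6 rose and 9 fell, with the receptor chains LIFR and IL6R at -0.76 and -0.57. Of 30 measured genes of iron and BMP 4 rose and 12 fell. ID1, an inhibitor of differentiation that BMP signals switch on, read 12.63, 12.50 and 12.60 in PBS and 11.26, 11.27 and 11.26 in PGG, a difference of -1.31 (limma adjusted p = 0.001). The error of ID1 takes in its PGG 48 h arrays, which had an SD of 0.684. Other BMP genes that fell, most of them picked after their values were seen, were ID4 at -1.39, ID3 at -0.89 and the ligand gene BMP6 at -0.62. The inhibitory SMAD genes SMAD7 and SMAD6 were at -0.92 and -0.52. Each of these had a limma adjusted p under 0.05, while 14 genes of the list were not called. SLC40A1, which encodes the iron exporter ferroportin that hepcidin closes, rose by 0.68.

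Of 32 measured ligands, receptors and feedback genes of EGFR and MAPK signalling 5 rose and 16 fell. The phosphatase gene DUSP6, which switches off ERK, read 9.37, 9.50 and 9.20 in PBS and 8.27, 8.29 and 8.35 in PGG, a difference of -1.05 (limma adjusted p = 8.4e-07). SPRY2 fell by 1.30, DUSP4 fell by 1.23 and EGFR fell by 1.07, whereas the ETS factor genes ETS1 and ETS2 rose by 1.52 and rose by 1.20 and the cytokine gene LIF rose by 1.22. Larger falls of EGFR ligands stood in probe sets that were not read for a gene. A probe set of EREG, which was read from another of higher mean, fell by 3.18, from 6.52 to 3.35. Its PGG signal lay in the lowest part of the array's range. The probe set read for EREG did not pass the study's cut-off. A probe set without a single symbol, which the paper assigns to AREG and AREGB, fell by 2.21. Among 32 immediate-early factors 7 rose and 9 fell, and 6 of those that fell were KLF genes. KLF4, a factor of epithelial differentiation, read 10.59, 10.56 and 10.50 and then 8.29, 8.20 and 8.31, a difference of -2.28 (limma adjusted p = 1.2e-08). FOS rose by 0.76 and ZFP36L1, which destabilises AU-rich messages, rose by 0.87. WNT genes gave 5 rises and 8 falls of 28 (17.9% and 28.6%), and TGF-beta and activin genes gave 5 and 8 of 27 (18.5% and 29.6%), among them DKK3 at 1.06 and the follistatin-like gene FSTL1 at 1.02. Their shares of rises were near the 17.2% of all genes, and 16.9% of all genes fell. The largest falls were -0.88 in the WNT list and -1.56 in the other, in the activin subunit gene INHBE.

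Genes of protein quality control moved both ways. Of 24 measured heat shock genes 13 rose and 6 fell. BAG3, a co-chaperone of HSP70, read 8.51, 8.66 and 8.66 in PBS and 10.21, 10.17 and 10.13 in PGG, a difference of 1.56 (limma adjusted p = 9.0e-09). DNAJB1 rose by 1.15, HSPE1, the mitochondrial chaperonin subunit, rose by 1.03, and HSP90AA1 rose by 0.80, while the mitochondrial HSP70 gene HSPA9 fell by 0.72 and HSF1, the heat shock factor, fell by 0.70. Without probe sets that match several transcripts 6 of the list rose. Of 30 genes of the endoplasmic reticulum 11 rose and 13 fell, with the coat protein gene SEC24D and the chaperone CRELD2 up by 1.61 and 1.16 and the stress sensor ERN1 at -1.32. HSPA5, the main chaperone of that compartment, was at -0.03 (limma adjusted p = 0.79). Proteasome subunits rose in 17 of 30 and fell in 2, the most by PSMD3 at 0.86. Targets of the antioxidant factor NRF2 gave 7 rises and 6 falls of 32, or 21.9% and 18.8%, near the 17.2% and 16.9% of all genes, and the heme oxygenase HMOX1 rose by 0.46.

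RNA processing and mitochondria were among the groups with more rises than falls. Of 29 splicing factors and their kinases 17 rose and 4 fell. SRSF7, a serine-arginine splicing factor, read 10.67, 10.66 and 10.69 in PBS and 11.87, 11.93 and 11.88 in PGG, a difference of 1.22 (limma adjusted p = 2.3e-08). SRSF6 rose by 1.14, while CLK1 and CLK4, kinases of these factors, fell by 0.70 and fell by 0.55. Without probe sets that match several transcripts 9 of the list rose. Of 60 subunits of oxidative phosphorylation 21 rose and 3 fell, with a median of 0.10 and COX6B1 the most changed at 0.88. Of 12 measured snoRNA host and nuclear noncoding RNAs 2 rose and 6 fell. EPB41L4A-AS1 read 10.42, 10.42 and 10.43 in PBS and 7.74, 7.93 and 7.99 in PGG, a difference of -2.54 (limma adjusted p = 1.4e-09), and the host genes ZFAS1 and SNHG17 fell by 1.49 and fell by 1.01.

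Among liver functions, 2 of 19 measured hepatocyte transcription factors rose and 9 fell. PROX1, HNF4G and FOXA2 fell by 0.96, fell by 0.91 and fell by 0.75 and GATA6 rose by 0.68. Plasma proteins gave 9 rises and 14 falls of 43. TTR, the carrier of thyroid hormone and retinol-binding protein, read 7.12, 7.14 and 6.93 in PBS and 8.51, 8.67 and 8.62 in PGG, a difference of 1.54, whereas coagulation factor VII (F7) fell by 1.61 and complement C5 fell by 1.39. Of 25 genes of bile acids and hepatic transport 6 rose and 9 fell, and the drug exporter ABCB1 fell by 1.18 and FGF19, the bile acid hormone, fell by 1.43. NAGS, which makes the activator of the urea cycle, fell by 1.84, in a list where 5 rose and 9 fell of 31. Oncofetal genes included KRT19, a biliary and progenitor keratin, which rose by 2.22, and the stem cell surface protein PROM1, which rose by 2.07, with 7 higher and 4 lower of 21.

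Of the remaining lists, the circadian clock gave 4 rises and 8 falls among 20 measured. CLOCK, the partner of BMAL1 that drives the cycle, read 8.27, 8.36 and 8.27 in PBS and 6.43, 6.60 and 6.60 in PGG, a difference of -1.76 (limma adjusted p = 1.0e-08). BMAL1 fell by 0.95 and NR1D2, a repressor of the loop, fell by 1.02, in groups that also differ in time in culture. AHR, the aryl hydrocarbon receptor, fell by 1.56, while its target CYP1A1 was higher by 0.48 (limma adjusted p = 0.016) and did not pass without PBS replicate 1 or 2 or PGG 6 h replicate 1. Targets of p53 gave 9 rises and 7 falls of 29 (31% and 24.1%, against 17.2% and 16.9% of all genes), with the kinase PLK2 at 1.70 and the BH3 gene PMAIP1 at -1.21. In the BCL2 family list 5 rose and 6 fell of 23 (21.7% and 26.1%), the most by BIK, another BH3 gene, at 2.08. Autophagy and lysosome genes gave 7 rises and 11 falls of 33, with ATG4C at -1.05 and WIPI1 at 0.99.

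**Figure D3:**
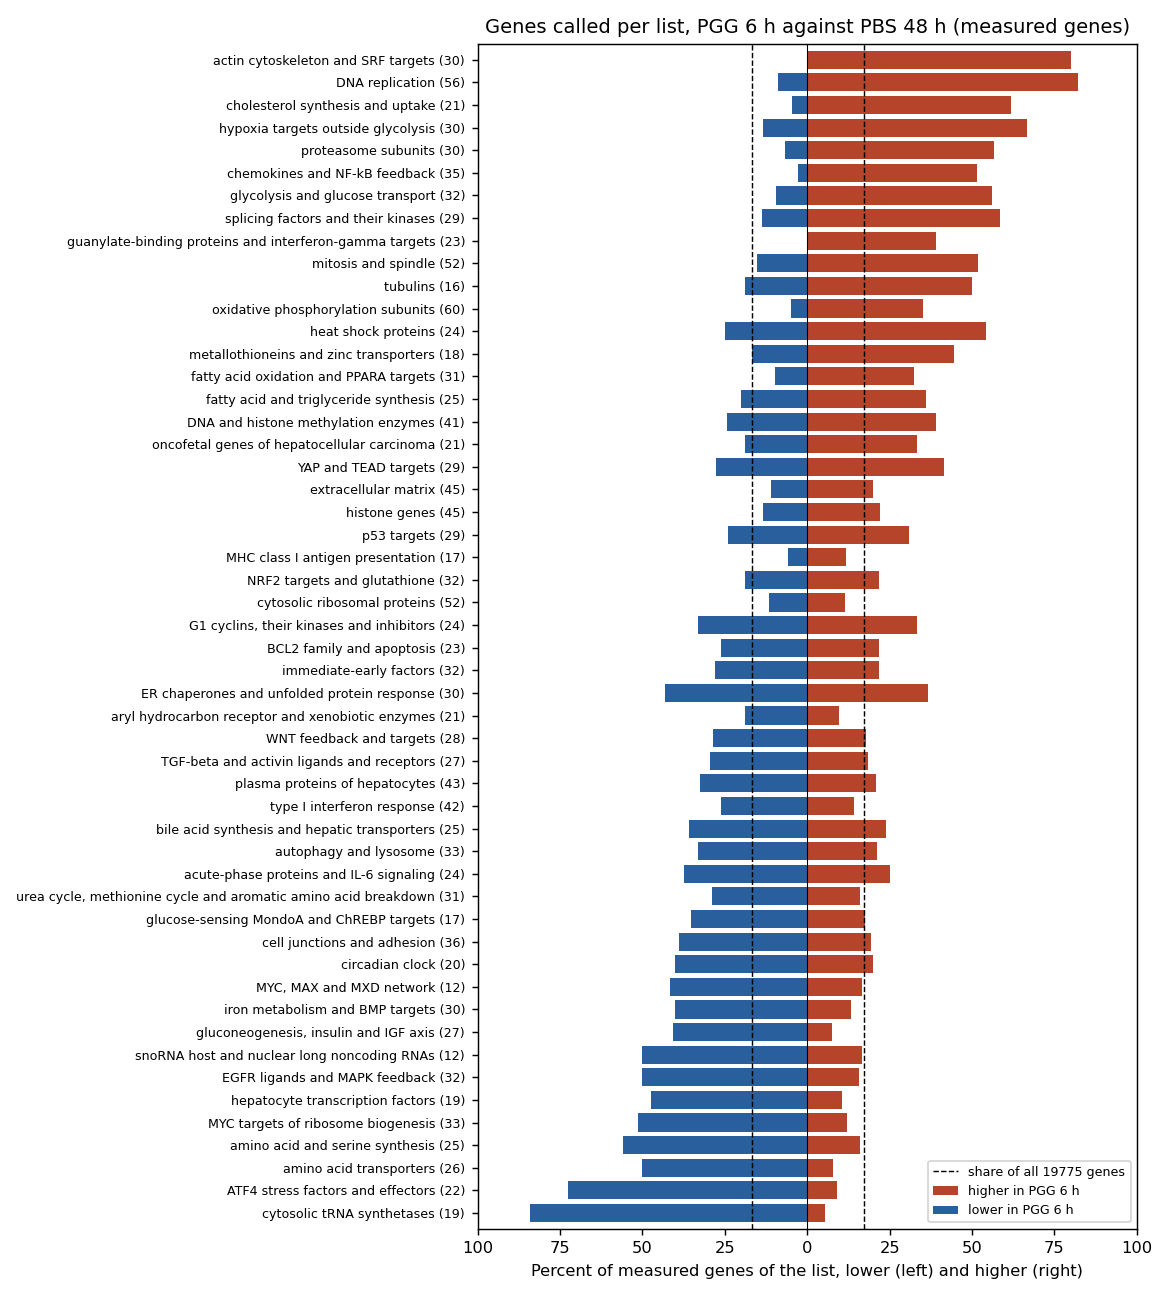
Share, in percent of measured members, of 52 gene lists that was higher (red, right) or lower (blue, left) after 6 hours of PGG at a limma adjusted p under 0.05, with the number measured in brackets. Dashed lines mark the share of all 19775 genes, 17.2% higher and 16.9% lower. Actin and DNA replication stand at the top with 24 of 30 and 46 of 56 genes higher, and tRNA synthetases at the bottom with 16 of 19 lower.

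Probe sets of 1 gene did not always move together. Of 10523 genes with more than 1 probe set, 107 had probe sets called in both directions at an adjusted p under 0.005. VIRMA, a component of the complex that methylates adenosine in RNA, had probe sets at 2.19 and -1.46, and the lipid kinase gene PIK3C2A at 2.51 and -0.70. The Rab exchange factor gene DENND5B had probe sets at 1.12 and -1.94, the ethanolamine kinase gene ETNK1 at 2.20 and -0.44, and the mitochondrial release factor gene MTRF1 at 1.79 and -0.51. Probe sets can differ in the transcripts they match, and the files do not say which. For these genes the value of a single probe set is no measure of the gene as a whole.

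The comparison of PGG 48 h with PBS shares the PBS arrays with the one at 6 hours, so their values are given side by side and no agreement between them is drawn. The median of the DNA replication genes was 0.65 at 6 hours and -0.31 at 48 hours, and that of the actin genes 0.59 and 0.00. The ATF4 effectors had medians of -0.56 and -0.01, with 10 higher and 7 lower at 48 hours, and the tRNA synthetases -0.72 and -0.31. MT1M was at 3.45 and 1.66, and MT2A at 1.87 and 1.03. TXNIP was at -2.68 and -0.24, ASNS at -2.82 and -0.38, and TAGLN at 2.60 and 0.73. MYL9, which read 4.68, 4.45 and 4.42 on the PGG 48 h arrays, was at 2.55 and -0.04.

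**Figure D4:**
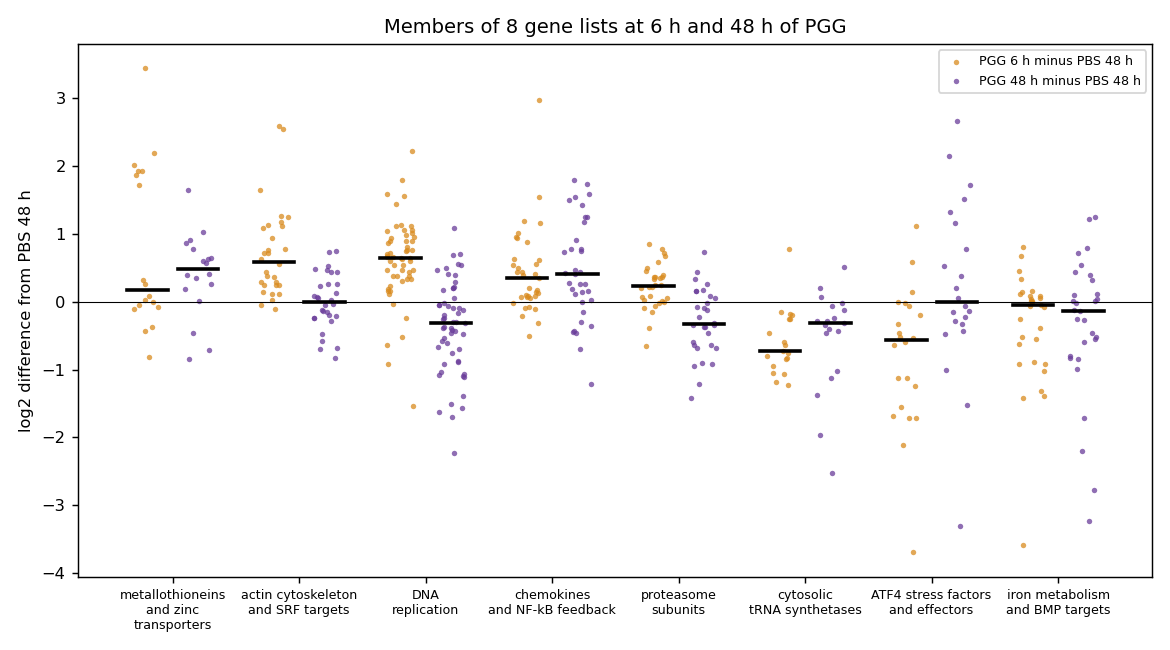
Log2 difference from PBS (vertical axis) of each measured member of 8 gene lists, after 6 hours (orange) and 48 hours (purple) of PGG. Points are genes and black lines medians of the list, and both colours use the same 3 PBS arrays. DNA replication has medians of 0.65 and -0.31, and actin of 0.59 and 0.00.

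Of 176 genes past the study's cut-off at 6 hours, 19 were called in the opposite direction at 48 hours, 14 of them lower and then higher and 5 higher and then lower. IGFBP1 read 10.41, 10.44 and 10.36 on the PGG 48 h arrays, above its PBS arrays and about 5 units above its PGG 6 h arrays. The PGG 48 h mean was 5.11 above the PGG 6 h mean, in a gene chosen for that turn. CCN1 was at 1.64 at 6 hours and at -0.30 at 48 hours, and COL4A1 at 1.78 and -0.97. The excess of the 3′ over the 5′ probe set of ACTB stood at 2.95 ± 0.97 (SD, n = 3) on the PGG 48 h arrays, and its part in the values at 48 hours was not tested.

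**Figure D5:**
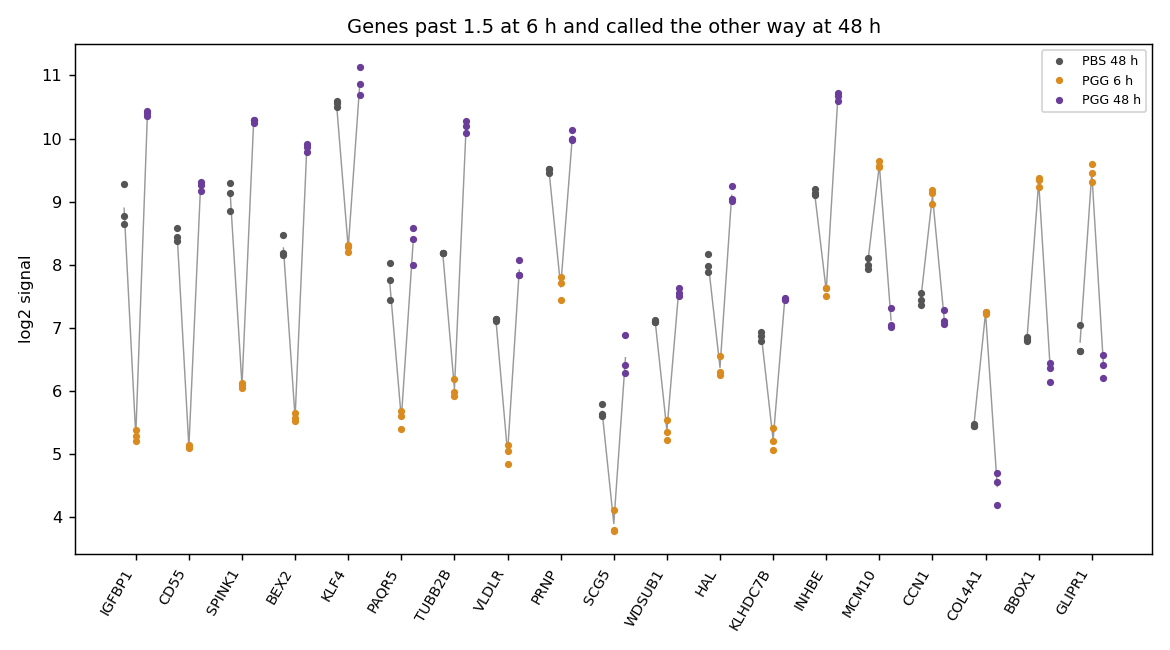
Log2 signal (vertical axis) on each of the 9 arrays for the 19 genes that differed from PBS by more than 1.5 at 6 hours and were called in the opposite direction at 48 hours. Points are single arrays coloured by group, and grey lines join the means of 3 arrays. IGFBP1 goes from a mean of 8.90 in PBS to 5.30 and then 10.40, and GLIPR1 from 6.78 to 9.46 and then 6.40.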

How the data were processed

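Total RNA of Huh7 cells was labelled and measured on 9 Affymetrix arrays, 6 of which entered this comparison. RMA and Affymetrix Expression Console are named in the submitters' processing notes, with no version in the sources used here. The authors deposited 1 RMA-normalised log2 signal per probe set and array, with no counts or depth, so that the number of arrays limits precision. Arrays were grouped by their titles. Of 54675 probe sets 62 controls were left out, and 41091 had 1 gene symbol in the platform annotation, 1801 several and 11721 none. Of those with 1 symbol, 41037 had an Entrez identifier in RefSeq, and 0 symbols changed.

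Differences were computed with limma 3.58.1 in R 4.3.3, with 1 mean per group over the 9 arrays, eBayes and Benjamini-Hochberg adjustment over 54613 probe sets or 19775 genes. The steps were tested on simulated data. The study's cut-offs were 0.005 for q and 1.5 for the mean difference. Gene lists (56, with 4 of cell type markers), list members and tests were chosen with earlier results of these data known. Genes named are the 15 largest rises and falls past that cut-off, up to 4 rises and 4 falls per list at an adjusted p under 0.05 with up to 2 bright members that did not pass, MYC, GNMT, the 5 genes with the widest gap between probe sets, and genes that turned between the times. Named after their values were seen were ACTB, ACTN4, AFP, BCAT1, BMAL1, BMP6, CDT1, CEBPG, DDIT3, EPO, GHR, HILPDA, ID3, KLF11, MCM5, MT1F, MT1H, MT2A, MTHFD2, NFKBIE, ORC4, PCK2, PCNA, PHGDH, PSAT1, PSPH, RB1, SHMT2, SLC2A1, SLC30A1, SLC7A1, SMAD6, SMAD7, SRF, TNFAIP3, TPM1, TRIB3, XPOT and ZYX. EREG, AREG, CDKN2C, H1F0 and HELLS were also named after their values were seen, from probe sets that were not read for a gene. Promoters are RefSeq sequence, 250 bases before and 50 from the start of the gene.

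The alternatives were the 6 arrays alone, a replicate block, array weights, median centring, quantile normalisation, a floor of 6 on the log2 signal, the methods' t-test, other probe set rules, a ratio of 1.5, and each array left out in turn. The scanner files and the pathway clustering were not analysed here.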

Additional observations from a re-analysis of the deposited data

Results flagged for a closer look

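The 19 genes below differed from PBS by more than 1.5 on the log2 scale at 6 hours and were called in the opposite direction at 48 hours. What drew attention is this change of direction. The difference between PGG 48 h and PGG 6 h is over 1.5 in size by the choice of the genes, so its values are a description. Both comparisons with PBS use the same PBS arrays, and the times of PGG differ in culture time as well.

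Of the 14 genes that were lower and then higher, IGFBP1 was 5.11 higher at 48 hours than at 6 hours of PGG, BEX2 4.27, SPINK1 4.18, TUBB2B 4.15 and CD55 4.13. INHBE, a subunit of activin, was 3.08 higher, reading 9.15 ± 0.05 (SD, n = 3) without PGG, 7.59 ± 0.08 (SD, n = 3) after 6 hours and 10.67 ± 0.06 (SD, n = 3) after 48 hours. VLDLR was 2.90 higher, the progestin receptor gene PAQR5 2.77, HAL, which breaks down histidine, 2.73, KLF4 2.63 and SCG5, a chaperone of a prohormone convertase, also 2.63. PRNP, the prion protein gene, was 2.38 higher, KLHDC7B 2.23 and WDSUB1 2.19.

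Of the 5 genes that were higher and then lower, GLIPR1 fell by 3.05 between 6 and 48 hours of PGG, BBOX1 fell by 3.00, COL4A1 fell by 2.75, MCM10 fell by 2.46 and CCN1 fell by 1.94. For GLIPR1 the difference from PBS at 48 hours was -0.37 (limma adjusted p = 0.028), and for CCN1 it was -0.30 (limma adjusted p = 0.0086), much smaller than at 6 hours. The excess of the 3′ over the 5′ probe set of ACTB was 1.17 ± 0.05 (SD, n = 3) after 6 hours of PGG and 2.95 ± 0.97 (SD, n = 3) after 48 hours. Its part in these differences was not tested.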

How the results depend on the processing

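The counts of called genes and probe sets kept within 1.5 times their value under all but 1 of the alternatives run. That 1 is the size cut-off read as a ratio of 1.5, with which 2221 probe sets were higher and 2553 lower against 163 and 238. Leaving out each array in turn gave 2808 to 3223 genes higher and 2878 to 3206 lower, and 162 to 168 probe sets higher and 226 to 252 lower. The methods' t-test gave 3035 genes higher and 2915 lower after Benjamini-Hochberg adjustment, and 128 and 183 probe sets. Rises made up 48.1% to 52.3% of the called genes, and centring or quantile normalisation moved the median of all genes to 0.01 both times.

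With the replicate number as a block 3318 genes were higher and 3286 lower, and 163 and 240 probe sets. Deviations of arrays with the same number correlated at 0.03, 0.04 and -0.08, so the numbers were not taken to pair the arrays. Under the block 8 of the 498 genes that the naming rule takes no longer passed.

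Some single genes turned with the choice of probe set. With the mean of all probe sets COL1A1 was at 0.24, ETNK1 at 0.20, HBP1 at 0.28, MRTFB at -0.20, MTRF1 at 0.28, PECAM1 at 0.34, PIK3C2A at 0.078 and PSMB7 at 0.20. Without probe sets that match several transcripts BOK was at -0.053, CASP8 at 0.18, CASP9 at -0.04, GADD45B at -0.12, HBP1 at 0.88, KDM6A at 0.013, RGS5 at 0.05, RPL22 at -0.36, SLC30A5 at 0.067 and TSR1 at -0.55. The cause was not tested. That setting measures fewer genes, and the counts of rises in the lists of actin, heat shock, splicing and glycolysis fell to 11, 6, 9 and 11.

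The arrays limit what can be seen in dim genes. With all genes cut into 4 equal classes of mean signal, 2.77% were higher and 3.30% lower in the lowest class, against 32% and 27.9% in the highest.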
